A study of Hydrangea macrophylla with 27 samples.

Results

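The genes described here encode the enzymes that modify pectin in the cell wall, together with the proteins that inhibit them, measured in whole stems of an ornamental shrub, Hydrangea macrophylla 'Wudu'. Members were all assembled transcript clusters whose best Swiss-Prot match is named as a pectinesterase, polygalacturonase, pectate lyase or pectin acetylesterase and whose expected counts summed to at least 100 over all libraries. The rule found 88 of 142016 clusters, after 21 matching clusters had fallen below the minimum. The smallest member total was 104 and the largest total left out was 91. Poly(A) RNA was sequenced from stems of potted micro-cuttings grown in a growth chamber, in 27 libraries, in order to follow the response to mechanical stimulation over time. A plastic curtain that moved across the stimulated plants bent them 12 times in 1 morning, with a labelled angle of 30 degrees and duration of 30 s. Plants of all groups had 16 h of light per day. Their stems were collected after 1, 3, 24 and 72 h, with stems of plants that were never bent collected at the same hours and stems of plants taken 15 min before the treatment. These 4 bent, 4 unbent and 1 earlier groups held 3 libraries each, all of the wild-type genotype. The labels call the libraries of a group biological replicates without saying which plants went into each, so the p-values measure only the spread between these samples. The labels do not say from which point of the bending the hours were counted.

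Pectin is laid down in the wall with its main chain, homogalacturonan, largely methylesterified. Pectinesterases remove methyl groups, which allows calcium to link chains and also opens the chains to polygalacturonases, which hydrolyse them, and to pectate lyases, which cleave them by elimination. Pectinesterase inhibitors hold back the esterases, and many pectinesterases are made with an inhibitor-like domain at their amino end that is removed before they act. Pectin acetylesterases remove acetyl groups, and polygalacturonase inhibitors of plants are best known for binding the polygalacturonases of fungi.

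The libraries held 14.4 M to 23.1 M expected counts each, and the members took 0.392% to 0.556% of them. Of the 88 members, 86 passed the filter on low counts, which left 52918 clusters to test; a pectate lyase 15 cluster (Cluster-9242.68905) and PME41 (Cluster-9242.73502) did not. The members were more abundant than most clusters, with a median CPM (counts scaled to library size with edgeR's TMM factors) of 15.6 among those tested, against 1.88 CPM over all clusters tested and 9.19 CPM over those with a Swiss-Prot match. Ribosomal RNA took 2.68% to 8.44% of the counts, with the highest shares in replicate 2 of the stems before bending and of the bent stems at 1 and 3 h. The labelled stem carried xylem markers, with 7 of 8 found and a sum of 318 to 666 FPKM (fragments scaled to cluster length and library size), and phloem markers, with 3 of 6 found and a sum of 104 to 145 FPKM. The only root marker found, NRT2.1, lay between 0 and 1.26 FPKM, and the 2 of 6 flower or pollen markers found summed to 6.92 to 13.1 FPKM. The 2 of 4 leaf mesophyll markers found summed to 1651 to 1730 FPKM in bent and 1800 to 2161 FPKM in unbent stems at 1 h, and to 1536 to 1758 FPKM in bent and 2005 to 2239 FPKM in unbent stems at 3 h. Nearly all of this sum was CAB21, and RBCS1 overlapped between bent and unbent stems at 1 and 3 h. The 3 of 6 epidermis markers found summed to 59.8 to 72.6 FPKM in bent and 62.0 to 71.1 FPKM in unbent stems at 1 h, and to 63.5 to 68.3 FPKM in bent and 57.3 to 57.8 FPKM in unbent stems at 3 h, where the groups did not overlap. Singly, only CER3 lay apart at 3 h, with 50.9, 52.0 and 50.5 FPKM in bent and 41.8, 40.45 and 40.8 FPKM in unbent stems. ATML1 and PDF1 overlapped there. Of the markers found, only NRT2.1 was at 0 in any library. The part of the mesophyll and epidermis markers and of the ribosomal RNA in the results was not tested. In whole stems, fewer cells of a type and less RNA per cell cannot be told apart.

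The members fell into 7 classes by the name of their match. Of these, 16 matched proteins that join a pectinesterase and an inhibitor domain, 14 other pectinesterases, 4 pectinesterase inhibitors, 27 polygalacturonases, 4 polygalacturonase inhibitors, 14 pectate lyases and 9 pectin acetylesterases. The class names describe the matches only in part. A pectinesterase domain was annotated in all 16 of the first class and the inhibitor domain in 11. Of the 14 other pectinesterases, 12 carried the pectinesterase domain, 5 the inhibitor domain and 4 both. The catalytic domain of family GH28 was annotated in 21 of the 27 polygalacturonases. Those without it include GP1 (Cluster-9242.53437), whose tomato match is the non-catalytic beta subunit of a polygalacturonase. All matches were plant proteins, from 12 species, and 60 were from Arabidopsis thaliana. There were 59 distinct matches, so 44 members share a name with another member; 10 of them matched 1 grapevine protein, Probable polygalacturonase. Whether clusters of the same name are paralogs or pieces of a single transcript was not tested, reads could be split between them, and their identifiers are given for that reason.

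A few members stood well above the rest. PMEI9 (Cluster-9242.54204), a pectinesterase inhibitor, had the highest mean level, 407 FPKM over the 27 libraries. GP1 averaged 313 FPKM, and a pectinesterase 3 whose match is from orange (Cluster-9242.54790) averaged 278 FPKM. The pectate lyase 18 cluster (Cluster-9242.53345) and PMEI3 (Cluster-9242.50109), an inhibitor whose overproduction blocks organ formation at the shoot apex of Arabidopsis, followed with 158 and 114 FPKM. These 5 members held 46.9% of the summed FPKM, 32 members averaged 10 to 100 FPKM, 35 averaged 1 to 10 FPKM and 16 were under 1 FPKM. The leading pectin acetylesterase was PAE8 (Cluster-9242.51252) with 64.5 FPKM, the leading polygalacturonase inhibitor (Cluster-9242.59008) had 62.7 FPKM and the leading cluster of the class named for a pectinesterase with an inhibitor was PME34 (Cluster-9242.50017), with 98.5 FPKM. Only the pectinesterase domain was annotated in PME34. Pectate lyases had a class median of 22.5 FPKM, against 5.43 FPKM for the pectinesterases named with an inhibitor and 6.96 FPKM for the polygalacturonases. Within every class, levels spanned more than an order of magnitude, as the plot of levels by class shows.

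**Figure D1:**
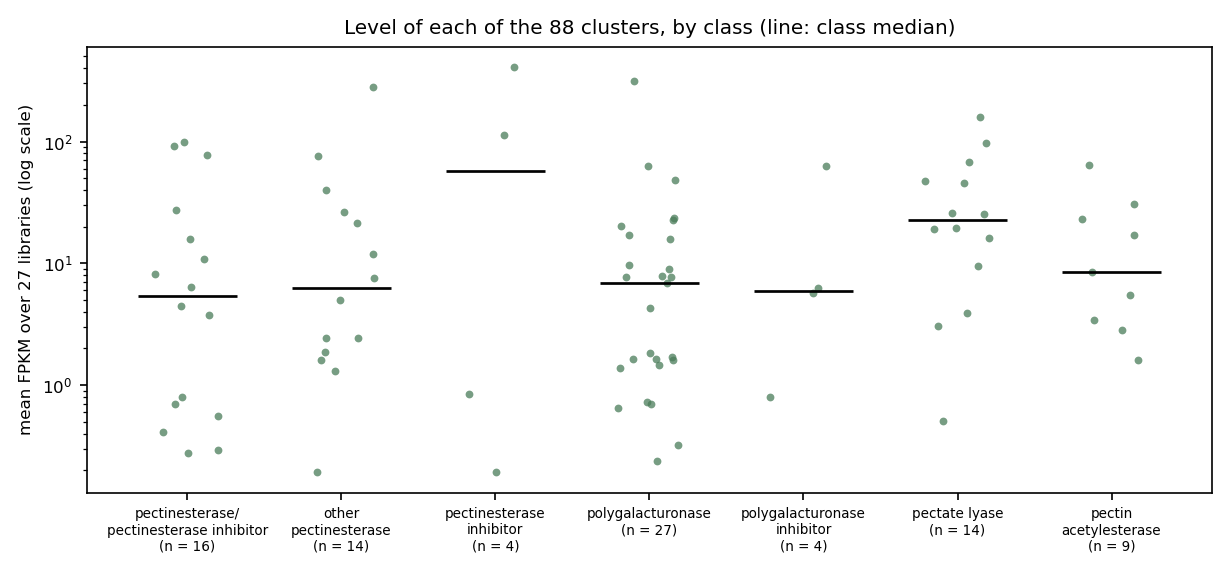
Mean FPKM of each of the 88 members over the 27 libraries, on a log axis, by class; each point is 1 cluster and each line the class median. The 5 members above 100 FPKM are 2 pectinesterase inhibitors, 1 pectinesterase, 1 polygalacturonase subunit and 1 pectate lyase.

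Members of most classes differed between bent and unbent stems within hours, in both directions. At 1 h, 5 members were higher and 5 lower in bent than in unbent stems, or 10 of 86 tested, at an adjusted p under 0.05 in edgeR's quasi-likelihood test; over all clusters tested 1.93% passed, 1.11% higher and 0.814% lower, and 2.83% of those with a Swiss-Prot match. At 3 h, 12 members were higher and 6 lower, against 5.08% of all clusters, 3.05% higher and 2.03% lower, and 8.14% of those with a match. The 3 h count was 9 without replicate 3 of the unbent stems and 11 without replicate 1 of the bent stems, while leaving out any other of the 6 libraries gave 12 to 19. At each of the 2 times, no member that passed had overlapping groups. A small p itself favours groups that lie apart, so the lack of overlap is no separate support, here or for single members below. The share of all clusters without overlap was not computed. Of the members that passed, 1 reached a 2-fold difference at 1 h and 3 did at 3 h. The median log2 fold change over the members was 0.0069 at 1 h and -0.10 at 3 h, beside 0.00058 and 0.0072 over all clusters tested. Of the 22 members that passed at either time, 6 passed at both, each in the same direction; they are 60% of the members of 1 h and 33.3% of those of 3 h.

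**Figure D2:**
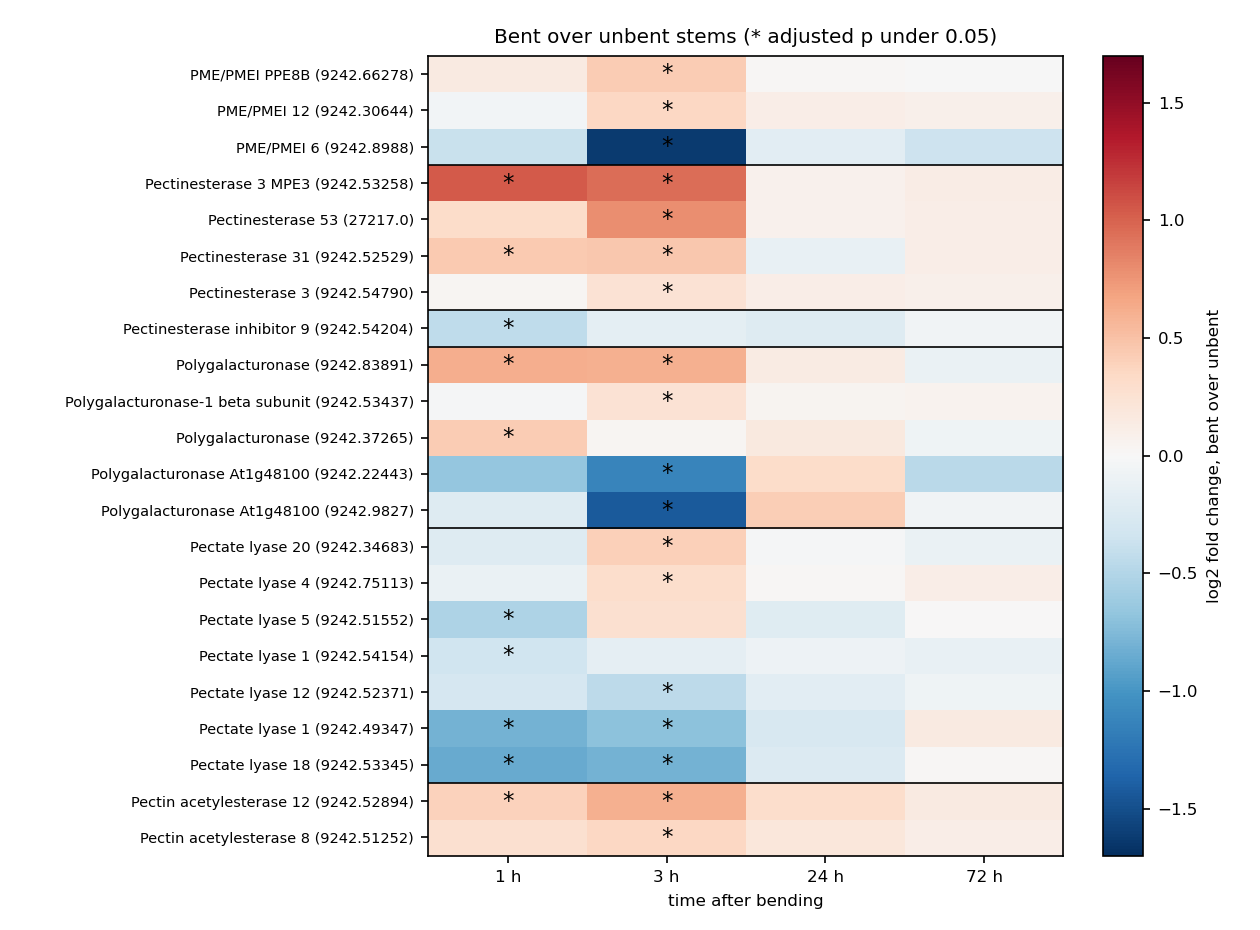
Log2 fold change, bent over unbent, at 1, 3, 24 and 72 h for the 22 members that passed at 1 or 3 h; rows are clusters grouped by class, colour gives the fold change, and stars mark an adjusted p under 0.05. All stars stand at 1 and 3 h, and values at 24 h lie between -0.28 and 0.42.

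The pectate lyases were the class with the most falls. Of 13 tested, 4 fell and 0 rose at 1 h, and 3 fell and 2 rose at 3 h. The most abundant, pectate lyase 18 (Cluster-9242.53345), had 51.5, 67.7 and 62.1 CPM in bent stems at 1 h, against 99.2, 122 and 108 CPM in unbent stems. At 3 h it had 104, 128 and 143 CPM in bent and 194, 228 and 232 CPM in unbent stems. At both times every bent library lay below every unbent one, with log2 fold changes of -0.86 ± 0.13 at 1 h and -0.80 ± 0.13 at 3 h (SE; adjusted p = 0.00106 and 0.000672). One of the pectate lyase 1 clusters (Cluster-9242.49347) also fell at both times, with 17.5, 22.6 and 23.2 CPM in bent and 36.5, 39.5 and 34.6 CPM in unbent stems at 1 h. Its log2 fold change was -0.80 ± 0.14 at 1 h and -0.70 ± 0.13 at 3 h (adjusted p = 0.00204 and 0.00194), and neither time showed an overlap. A second pectate lyase 1 cluster (Cluster-9242.54154) had 61.1, 61.8 and 67.6 CPM in bent stems at 1 h, against 79.1, 80.0 and 81.7 CPM in unbent stems, a fall by 0.34 ± 0.07 on the log2 scale (adjusted p = 0.00221). Its value at 3 h was -0.15 ± 0.07, which did not pass (adjusted p = 0.234). The third (Cluster-9242.49346) had log2 fold changes that did not pass at either time. Pectate lyase 12 (Cluster-9242.52371) had 46.7, 46.0 and 51.9 CPM in bent and 61.0, 67.6 and 68.7 CPM in unbent stems at 3 h. The groups were apart, and the log2 fold change of -0.45 ± 0.09 passed at 3 h (adjusted p = 0.000584), while its -0.29 ± 0.09 at 1 h had an adjusted p of 0.0704.

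Within the same class, pectate lyases 5 and 20 had bending effects that differed between 1 and 3 h. Pectate lyase 5 (Cluster-9242.51552) had 57.4, 55.0 and 54.1 CPM in bent stems at 1 h, against 89.3, 77.2 and 72.9 CPM in unbent stems. At 3 h the bent stems had 220, 191 and 213 CPM and the unbent stems 191, 173 and 154 CPM. The bent libraries were thus the lower ones at 1 h and the higher ones at 3 h, where the lowest bent library only just exceeded the highest unbent one. The log2 fold change was -0.52 ± 0.10 at 1 h (adjusted p = 0.00344) and 0.27 ± 0.10 at 3 h (adjusted p = 0.132), and the difference between these effects, 0.79 ± 0.14, passed (adjusted p = 0.00299). Pectate lyase 20 (Cluster-9242.34683) had 29.6, 33.8 and 31.9 CPM in bent and 21.9, 25.2 and 25.1 CPM in unbent stems at 3 h, groups that did not overlap. It rose by 0.40 ± 0.10 at 3 h (adjusted p = 0.00529), had -0.23 ± 0.10 at 1 h (adjusted p = 0.357), and its difference between the times was 0.63 ± 0.14 (adjusted p = 0.0102). Without the 3 libraries richest in ribosomal RNA the 3 h value was 0.35 and no longer passed (adjusted p = 0.0548). In edgeR these were the 2 of 86 members whose bending effect differed between 1 and 3 h, against 0.841% of all clusters tested. The count was 1 without replicate 1 of the unbent stems of 1 h, 1 without the 3 libraries richest in ribosomal RNA and 5 in DESeq2. Pectate lyase 4 (Cluster-9242.75113), with 39.3, 41.5 and 40.9 CPM in bent and 35.2, 33.9 and 29.6 CPM in unbent stems at 3 h, rose by 0.30 ± 0.09 (adjusted p = 0.0272). That call was lost without any 1 of the 3 bent libraries or of replicates 2 and 3 of the unbent stems, with adjusted p from 0.051 to 0.249. It was also lost with no filter on low counts (0.112), in the compared groups alone (0.0565) and without the libraries richest in ribosomal RNA (0.112).

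Among the other pectinesterases, 2 of 14 rose at 1 h, 4 rose at 3 h and none fell in edgeR, where 1 fall at 1 h and 2 at 3 h had an unadjusted p under 0.05. MPE3 (Cluster-9242.53258), a pectinesterase 3 whose match is from common bean, had 355, 249.9 and 281 CPM in bent stems at 1 h, against 133, 137 and 161 CPM in unbent stems. At 3 h it had 91.2, 61.0 and 60.7 CPM in bent and 43.9, 34.6 and 31.8 CPM in unbent stems, so that replicate 1 was the highest bent library at both times and the groups never overlapped. Its log2 fold change was 1.04 ± 0.18 at 1 h and 0.95 ± 0.19 at 3 h (adjusted p = 0.00337 and 0.00428), which made it the only member that passed with a 2-fold difference at 1 h. In a fit of the 6 libraries of 3 h alone its call was lost (adjusted p = 0.0993). PME31 (Cluster-9242.52529), a pectinesterase known in Arabidopsis for a part in salt tolerance, had 234, 183 and 194 CPM in bent and 138, 149 and 161 CPM in unbent stems at 1 h. At 3 h it had 144, 124 and 127 CPM in bent and 103, 94.2 and 91.8 CPM in unbent stems. The bent libraries were the higher ones each time, by 0.45 ± 0.08 on the log2 scale at 1 h and again 0.45 ± 0.08 at 3 h (adjusted p = 0.000193 and 7.68e-05).

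In this class 2 further members passed at 3 h, and both calls depended on single libraries and on the method. The orange-matched pectinesterase 3 (Cluster-9242.54790) had 711, 665 and 680.5 CPM in bent and 578, 591 and 559 CPM in unbent stems, a rise by 0.25 ± 0.07 (adjusted p = 0.024). At 1 h its log2 fold change was 0.03 ± 0.07. A PME53 cluster (Cluster-27217.0), of low level, had 6.11, 4.87 and 5.13 CPM in bent and 4.20, 3.03 and 2.12 CPM in unbent stems and rose by 0.79 ± 0.24 (adjusted p = 0.041). Neither pair of groups overlapped. The first call was lost without replicate 1 or 3 of either the bent or the unbent stems (adjusted p 0.0551 to 0.146), and the second without any 1 of the 6 libraries except replicate 1 of the unbent stems (adjusted p 0.0562 to 0.333). In limma on log2(FPKM + 0.1) and log2(FPKM + 1) the first had an adjusted p of 0.163 each time, and the second 0.0784 and 0.0809. The second was also lost in the compared groups alone (0.0697) and without the 3 libraries richest in ribosomal RNA (0.06035). PME2.1 (Cluster-9242.48186), the second most abundant of the class, had 103, 119 and 122 CPM in bent and 144, 137 and 157 CPM in unbent stems at 3 h. It did not pass, with a log2 fold change of -0.35 ± 0.12 (adjusted p = 0.0923), although the groups did not overlap and it passed in DESeq2 (adjusted p = 0.02).

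Among the 15 tested pectinesterases with an inhibitor domain in their name, 2 rose and 1 fell at 3 h. At 1 h none passed in edgeR, DESeq2 or limma-voom, and 2 had an unadjusted p under 0.05 in each of these tools. PME6 (Cluster-9242.8988), a pectinesterase known in Arabidopsis for its part in guard cell walls and seed mucilage, had the largest fall among the members that passed. It had 1.76, 1.55 and 2.59 CPM in bent stems at 3 h, against 6.01, 6.38 and 5.95 CPM in unbent stems. Every bent library lay well below every unbent one. The log2 fold change was -1.63 ± 0.25 (adjusted p = 1.72e-05), against -0.37 ± 0.25 at 1 h (adjusted p = 0.679), where the groups overlapped. A match to the peach enzyme PPE8B (Cluster-9242.66278) had 78.4, 67.2 and 68.0 CPM in bent and 62.1, 50.0 and 46.9 CPM in unbent stems at 3 h, without overlap, and rose by 0.43 ± 0.09 (adjusted p = 0.00217). Without replicate 3 of the unbent stems it did not pass (0.34, adjusted p = 0.0568). PME12 (Cluster-9242.30644) had 81.6, 78.9 and 82.0 CPM in bent and 67.8, 59.8 and 63.1 CPM in unbent stems at 3 h and rose by 0.35 ± 0.10 (adjusted p = 0.0294), a call lost without any 1 of the 6 libraries except replicate 1 of the unbent stems (adjusted p 0.0584 to 0.146). The abundant PME34 (Cluster-9242.50017), known in Arabidopsis for a part in heat tolerance and guard cells, had log2 fold changes of 0.21 ± 0.07 at 1 h and 0.10 ± 0.07 at 3 h that did not pass.

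The most abundant member, the inhibitor PMEI9 (Cluster-9242.54204), fell at 1 h. It had 212, 217 and 227 CPM in bent and 327, 304 and 256 CPM in unbent stems, so that the highest bent library stayed below the lowest unbent one. The log2 fold change was -0.43 ± 0.07 (adjusted p = 0.000243). At 3 h the bent stems had 341, 347 and 374 CPM and the unbent stems 377, 404 and 406 CPM, a difference of -0.16 ± 0.07 that did not pass (adjusted p = 0.247). PMEI3 (Cluster-9242.50109) had log2 fold changes of -0.32 ± 0.19 at 1 h and -0.36 ± 0.19 at 3 h, neither of which passed.

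Pectin acetylesterases that passed were all higher in bent stems, 1 of 9 at 1 h and 2 at 3 h. A PAE12 cluster (Cluster-9242.52894) had 51.3, 54.7 and 61.4 CPM in bent and 39.5, 33.6 and 37.2 CPM in unbent stems at 3 h. The groups were well apart, and the rise was 0.60 ± 0.10 (adjusted p = 0.00015). At 1 h it had 45.3, 51.4 and 54.3 CPM in bent and 44.7, 35.7 and 34.8 CPM in unbent stems, where the lowest bent and the highest unbent library nearly met. The rise of 0.39 ± 0.10 at 1 h (adjusted p = 0.0332) was lost without replicate 2 or 3 of either the bent or the unbent stems (adjusted p 0.0959 to 0.209). It was also lost in limma on log2(FPKM + 0.1) and log2(FPKM + 1) (0.229 and 0.216) and without the libraries richest in ribosomal RNA (0.107). PAE8 (Cluster-9242.51252), the most abundant of the class, had 292, 280.1 and 262 CPM in bent and 241, 204 and 210.0 CPM in unbent stems at 3 h, without overlap. It rose by 0.35 ± 0.08 at 3 h (adjusted p = 0.00519), a call lost without replicate 1 of the bent or replicate 2 or 3 of the unbent stems (adjusted p 0.0504 to 0.0546), and had 0.27 ± 0.08 at 1 h (adjusted p = 0.0743). The other PAE12 cluster (Cluster-9242.51074) and PAE10 (Cluster-9242.51077) had 0.20 ± 0.08 and 0.22 ± 0.09 at 3 h and did not pass.

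Polygalacturonases moved both ways, with 2 of 27 higher at 1 h and 2 higher and 2 lower at 3 h. The falls that passed were in clusters that match Arabidopsis At1g48100, known as PGX3, a polygalacturonase that takes part in cell expansion and stomatal movement in that species. The first (Cluster-9242.9827) had 2.53, 2.16 and 2.12 CPM in bent and 7.15, 5.53 and 5.69 CPM in unbent stems at 3 h. The bent libraries were all well below the unbent ones, with a log2 fold change of -1.43 ± 0.24 (adjusted p = 0.000157). The second (Cluster-9242.22443) had 7.76, 8.70 and 7.49 CPM in bent and 14.8, 19.5 and 17.9 CPM in unbent stems at 3 h, again without overlap, and fell by 1.12 ± 0.30 (adjusted p = 0.0354). That call was lost without any 1 of the 6 libraries except replicate 1 of the unbent stems (adjusted p 0.0767 to 0.14). It was also lost in limma-voom (0.0772), with no filter on low counts (0.0629) and with a replicate block (0.0525). Without the libraries richest in ribosomal RNA the adjusted p was 0.0986. At 1 h the log2 fold changes of these 2 clusters were -0.23 ± 0.24 and -0.66 ± 0.31, which did not pass. The other clusters of this match, Cluster-9242.22444, Cluster-9242.8597 and Cluster-30084.1, passed at neither time. Among the clusters that match the grapevine protein, Cluster-9242.83891 had 29.6, 24.8 and 28.6 CPM in bent and 17.9, 17.7 and 18.4 CPM in unbent stems at 1 h. It rose by 0.62 ± 0.14 at 1 h and by 0.60 ± 0.14 at 3 h (adjusted p = 0.00542 and 0.00566), with no overlap at either time. Its calls were lost without replicate 1 of the bent stems at 1 h (0.57, adjusted p = 0.0616) and without replicate 3 of the unbent stems at 3 h (0.51, adjusted p = 0.0844). In limma on log2(FPKM + 0.1) it passed at neither time (adjusted p = 0.121 at 1 h and 0.0602 at 3 h). On log2(FPKM + 1) the call of 1 h was lost too (0.0634). Cluster-9242.37265 had 106, 102 and 109 CPM in bent and 81.6, 78.2 and 74.8 CPM in unbent stems at 1 h, without overlap, and rose by 0.43 ± 0.08 (adjusted p = 0.000399). At 3 h its log2 fold change was 0.04 ± 0.08. Cluster-9242.53821, of the same match, had -0.39 at 3 h, which did not pass in edgeR (adjusted p = 0.0813) but did in DESeq2 (0.0122).

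GP1, the abundant beta subunit, had 820.1, 729 and 796 CPM in bent and 652, 649 and 678 CPM in unbent stems at 3 h. It rose by 0.24 ± 0.07 (adjusted p = 0.0212), a call lost without any 1 of the libraries except replicate 2 of the bent stems (adjusted p 0.0544 to 0.156). It was also lost in limma on log2(FPKM + 0.1) and log2(FPKM + 1) (adjusted p = 0.146 and 0.147). At 1 h its groups overlapped. None of the 4 polygalacturonase inhibitors passed at any time after bending in edgeR, where 1 had an unadjusted p under 0.05 at 3 h and 1 at 24 h. The closest was a PGIP1 cluster (Cluster-9242.6774), with 14.5, 14.4 and 14.4 CPM in bent and 7.20, 4.80 and 6.57 CPM in unbent stems at 3 h. The groups were far apart, and its log2 fold change of 1.21 ± 0.40 had an adjusted p of 0.0976 in edgeR, 0.0336 in DESeq2 and 0.0197 in limma-voom.

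**Figure D3:**
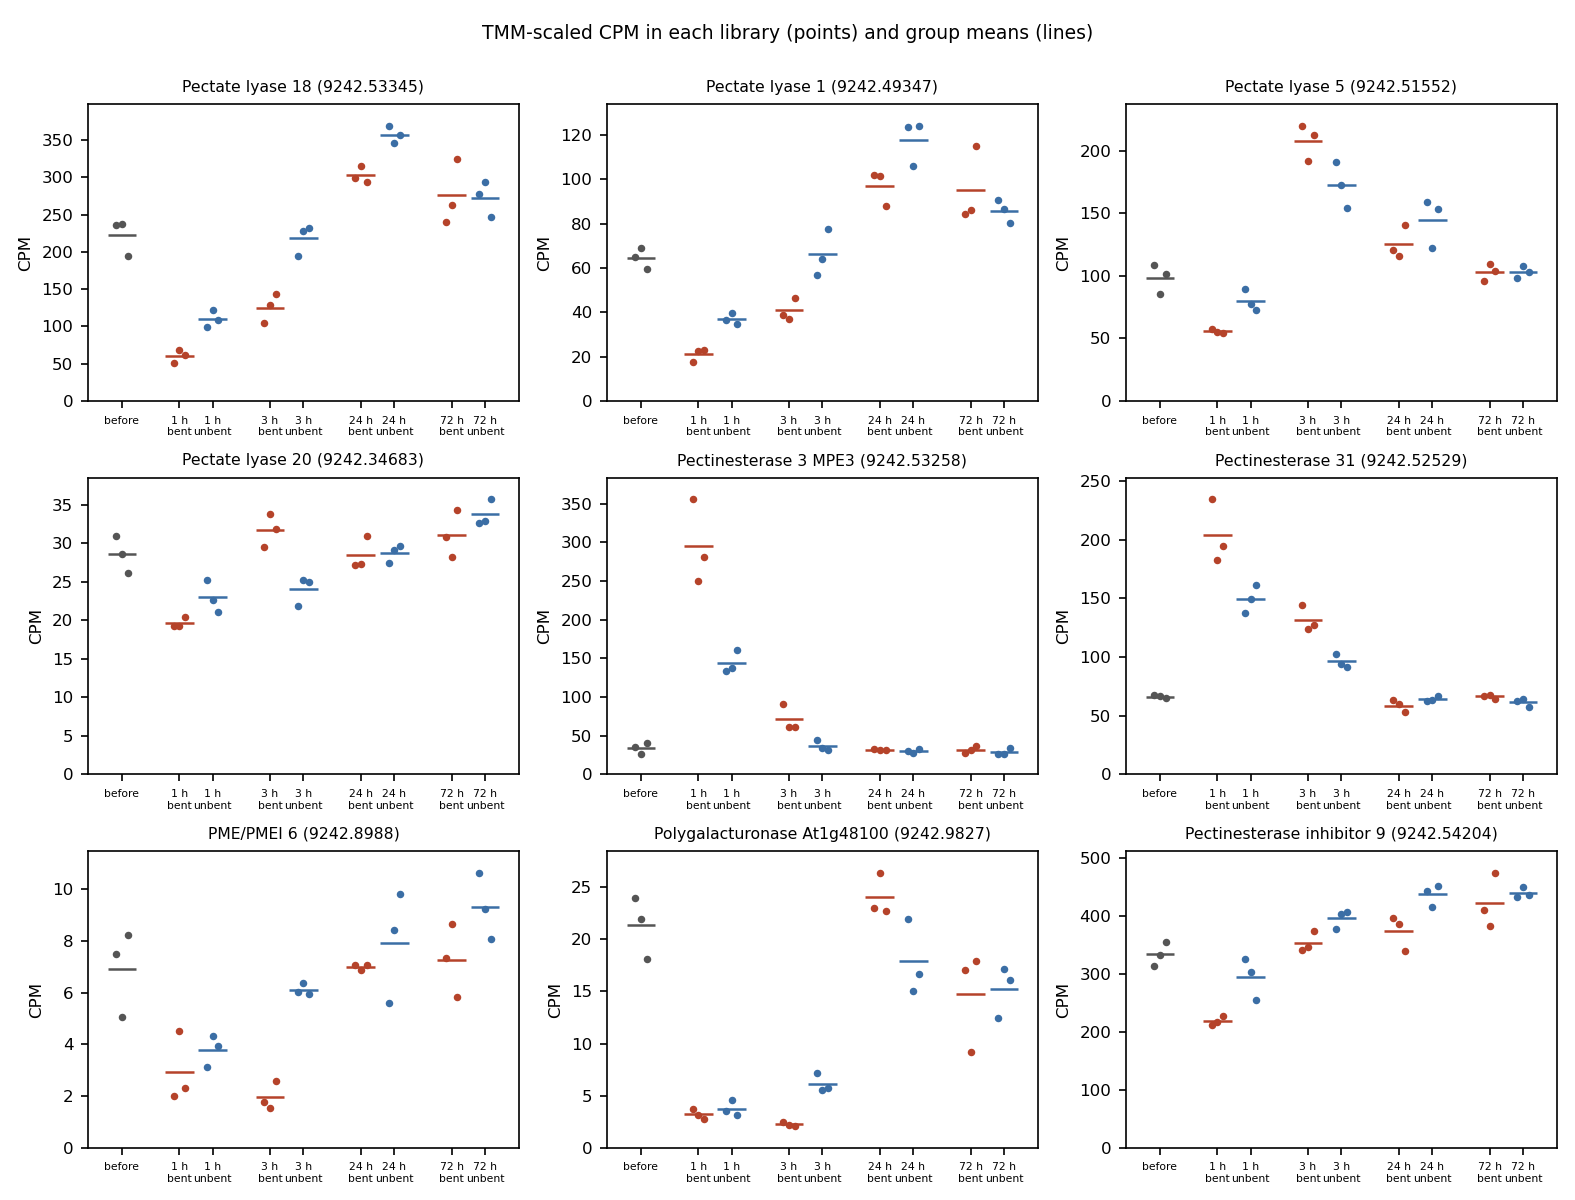
CPM of 9 members in each of the 27 libraries (points) with group means (lines), over time from before bending (grey) to 72 h, bent stems in red and unbent stems in blue. Pectate lyases 18 and 1 are lowest in bent stems at 1 h, and MPE3 and PME31 are highest there.

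Summed over a class, levels in bent and unbent stems did not overlap in 4 of the 7 classes at 1 or 3 h. No test was run on these sums, and groups of 3 libraries can lie apart without a difference. The pectate lyases summed to 251 to 285 FPKM in bent stems at 1 h, against 369 to 404 FPKM in unbent stems, and to 414 to 463 FPKM in bent against 501 to 555 FPKM in unbent stems at 3 h. The pectinesterase inhibitors summed to 308 to 321 FPKM in bent and 380.1 to 494 FPKM in unbent stems at 1 h. At 3 h they summed to 445 to 486 FPKM in bent and 495.5 to 548 FPKM in unbent stems. In both classes the bent libraries lay below the unbent ones. The other pectinesterases ran the other way, with 591 to 642 FPKM in bent and 534 to 561 FPKM in unbent stems at 1 h and 524 to 552 FPKM in bent and 472 to 484 FPKM in unbent stems at 3 h. The pectin acetylesterases summed to 184 to 191 FPKM in bent and 146 to 166 FPKM in unbent stems at 3 h, also without overlap. At 1 h they had 158 to 177 FPKM in bent and 136.5 to 154 FPKM in unbent stems. Groups also lay apart at 24 h for the pectate lyases (665.5 to 704 FPKM bent, 734 to 787 FPKM unbent). The same held at 24 h for the other pectinesterases (410 to 441.5 and 370 to 409 FPKM) and the polygalacturonase inhibitors (70.4 to 75.4 and 58.1 to 64.5 FPKM). A single cluster, PMEI9 (Cluster-9242.54204), held 78.0% of the FPKM of the pectinesterase inhibitors. The cluster that held 58.3% of the FPKM of the other pectinesterases, Cluster-9242.54790, overlapped at 1 h, with 305, 310 and 300 FPKM in bent and 340, 295 and 300 FPKM in unbent stems. MPE3 (Cluster-9242.53258), of the same class, had 173, 123 and 143 FPKM in bent and 69.3, 70.5 and 83.1 FPKM in unbent stems at 1 h.

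**Figure D4:**
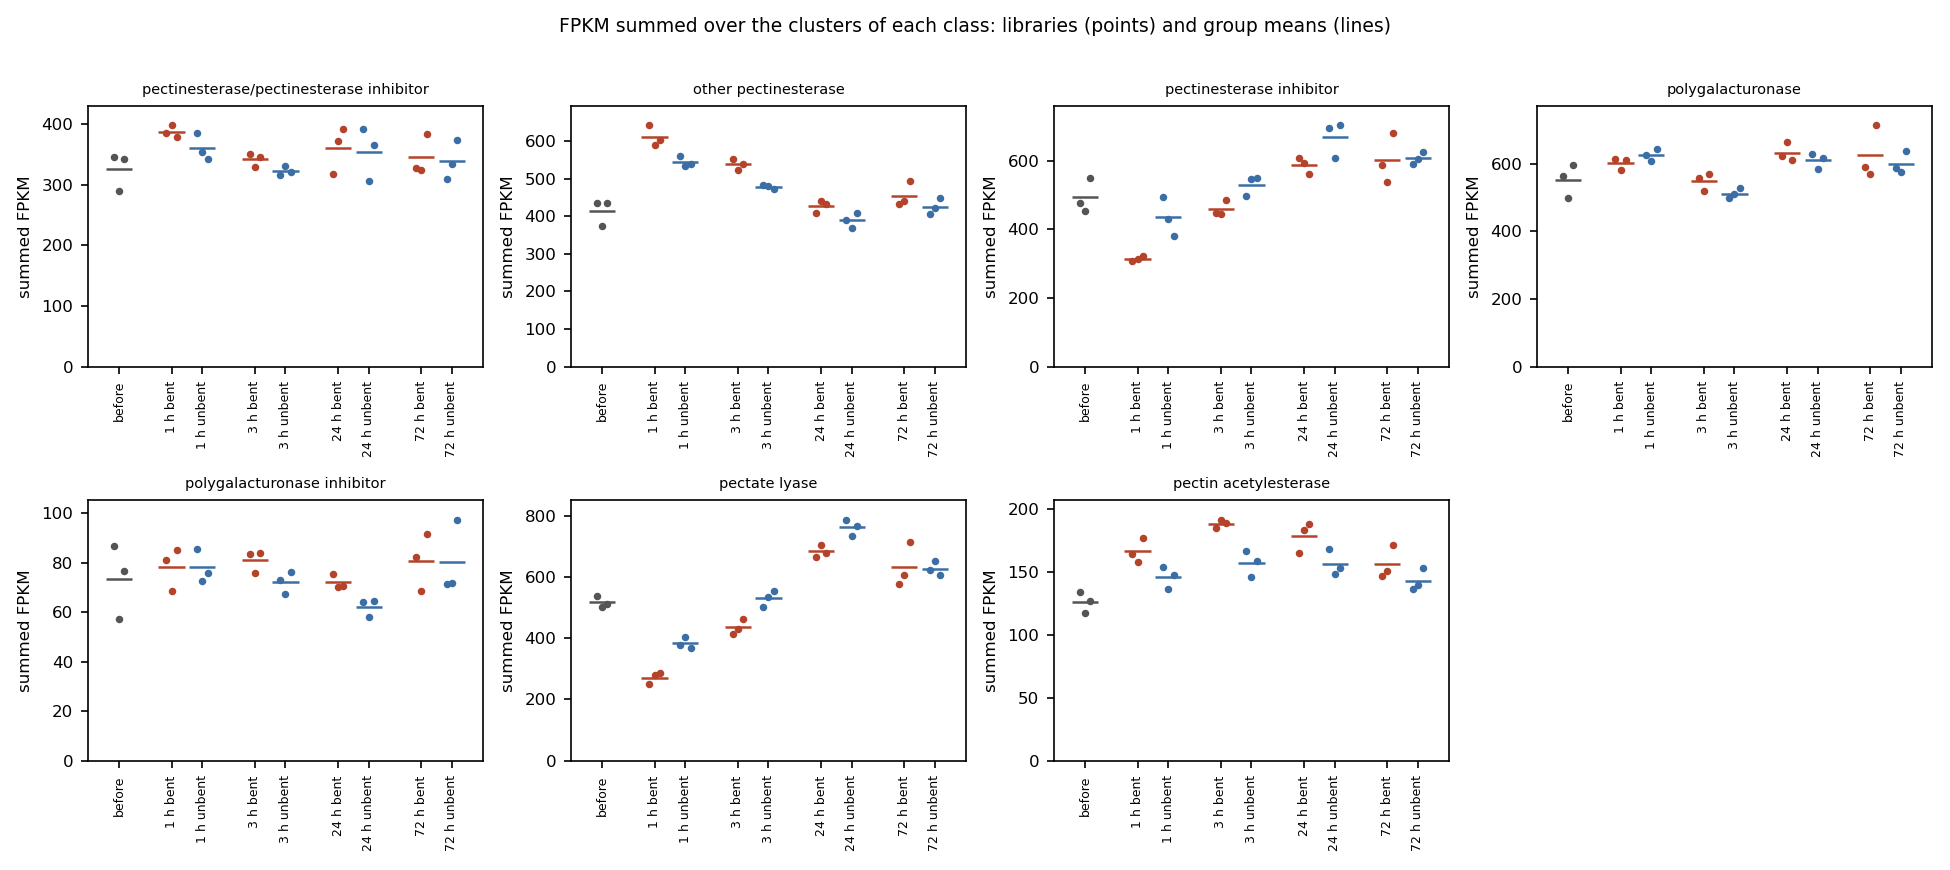
FPKM summed over the members of each class in every library (points) with group means (lines), from before bending (grey) through 1, 3, 24 and 72 h, bent in red and unbent in blue. Pectate lyases in bent stems at 1 h (251 to 285 FPKM) lie below every other group.

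By 24 h no member passed between bent and unbent stems in edgeR, DESeq2 or limma-voom, and 0.0246% of all clusters tested passed in edgeR. There 15 members had an unadjusted p under 0.05 at 24 h, and the lowest adjusted p was 0.416. At 72 h no member passed in these tools, 0% of all clusters did in edgeR, 3 members had an unadjusted p under 0.05 there and the lowest adjusted p was 0.846. The 22 members that had passed at 1 or 3 h had log2 fold changes of -0.28 to 0.42 at 24 h and -0.46 to 0.16 at 72 h. Pectate lyase 18 had 299, 315 and 294 CPM in bent and 369, 347 and 356 CPM in unbent stems at 24 h, groups that did not overlap, with a log2 fold change of -0.24 ± 0.13 (adjusted p = 0.841). MPE3 had 32.2, 31.9 and 31.5 CPM in bent and 30.9, 28.03 and 32.2 CPM in unbent stems at 24 h, and the groups overlapped.

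Whether the bending effect differed over the 4 times was tested directly, and 8 of 86 members passed, against 2.11% of all clusters tested. They were PME31 (adjusted p = 0.000738), the At1g48100 match Cluster-9242.9827 (0.00203), pectate lyase 5 (0.00734), pectate lyase 1 Cluster-9242.49347 (0.0138), pectate lyase 20 (0.0152), pectate lyase 18 (0.0195), the polygalacturonase Cluster-9242.37265 (0.0202) and PME6 (0.0246). For pectate lyase 20 the call was lost without replicate 2 of the bent stems at 3 h (0.0747) or replicate 1 of the unbent stems at 3 h (0.0679), and without the 3 libraries richest in ribosomal RNA (0.12). The At1g48100 match did not pass in limma-voom (0.121). Of these 8, 4 are pectate lyases. For MPE3 this test did not pass, although its values at 24 and 72 h were 0.07 ± 0.19 and 0.13 ± 0.19.

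Unbent stems themselves differed over time, and more members passed there than between bent and unbent stems. An F test over the 5 time points of untreated stems passed for 54 of 86 members, against 28.8% of all clusters tested and 41.4% of those with a Swiss-Prot match, and for 12 of the 13 pectate lyases and 20 of the 27 polygalacturonases. Set against stems before bending, 10 members were higher and 11 lower in unbent stems at 1 h, against 6.46% and 3.85% of all clusters. At 3 h 14 were higher and 8 lower, against 8.24% and 5.88%. At 24 h 15 were higher and none lower, against 4.66% and 3.75%, and at 72 h 15 were higher and 4 lower, against 5.58% and 4.76%. In either direction, 24.4%, 25.6%, 17.4% and 22.1% of the members passed at 1, 3, 24 and 72 h. Of clusters with a Swiss-Prot match, 15.0%, 21.3%, 12.4% and 15.2% did. Of these 24388 clusters, 2232 were lower at 3 h and 1788 at 72 h, so the lower members there were near or below that share. Leaf mesophyll markers summed to 3379 to 3682 FPKM in unbent stems at 24 h and 2854 to 3004 FPKM at 72 h, against 2115 to 2496 FPKM before bending, without overlap. CAB21, with a mean of 2477 FPKM over the 27 libraries, made up nearly all of this sum. RBCS1 went the other way, with 18.7, 16.2 and 13.5 FPKM before bending and 13.1, 12.8 and 11.5 FPKM in unbent stems at 24 h. At 72 h RBCS1 had 11.3, 5.02 and 7.23 FPKM in unbent stems. Epidermis markers summed to 62.0 to 71.1 FPKM in unbent stems at 1 h and 57.3 to 57.8 FPKM at 3 h, against 45.3 to 53.9 FPKM before bending, without overlap. CER3 made up most of this sum and was higher at both times, without overlap. ATML1 had 5.02, 4.50 and 3.61 FPKM before bending, against 3.07, 2.81 and 2.32 FPKM in unbent stems at 3 h. ATML1 overlapped at 1 h, and PDF1 overlapped at both times. The part of these markers in the counts of members was not tested. These comparisons share the unbent libraries with those above, so their values are only given side by side. The 72 h count was 9 without replicate 1 before bending and 11 to 12 without replicate 2 before bending or without replicate 1 or 3 of the unbent stems of 72 h. The median log2 fold change over the members was 0.21 at 24 h, beside -0.0070 over all clusters tested. No member was lower at 24 h in edgeR or limma-voom, 2 were in DESeq2, and 9 lower members had an unadjusted p under 0.05 in edgeR.

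Pectate lyases in unbent stems fell at 1 h and were higher at 24 h. Pectate lyase 18 had 99.2, 122 and 108 CPM in unbent stems at 1 h and 369, 347 and 356 CPM at 24 h, against 235, 238 and 194 CPM before bending. No library of either time overlapped those before bending, with log2 fold changes of -1.02 ± 0.13 at 1 h and 0.68 ± 0.13 at 24 h (adjusted p = 1.25e-05 and 0.002). The pectate lyase 1 clusters Cluster-9242.49347 and Cluster-9242.49346 had 0.87 ± 0.13 and 0.71 ± 0.09 at 24 h (adjusted p = 0.000143 and 7.5e-07). Pectate lyase 8 (Cluster-9242.34682) had 34.2, 32.1 and 34.4 CPM in unbent stems at 72 h, against 20.4, 19.1 and 18.0 CPM before bending, a rise by 0.81 ± 0.11 (adjusted p = 1.87e-06). Pectate lyase 5 rose by 0.81 ± 0.10 at 3 h (adjusted p = 7.09e-07). In all, 4 pectate lyases were lower and 0 higher at 1 h, and 7 were higher and 0 lower at 24 h.

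For the members that passed between bent and unbent stems at 1 h, the values of unbent stems against stems before bending are given beside them. MPE3 had 133, 137 and 161 CPM in unbent stems at 1 h, against 35.2, 26.2 and 40.6 CPM before bending, a log2 fold change of 2.08 ± 0.19 (adjusted p = 1.87e-07), beside 1.04 for bent over unbent stems. PME31 had 138, 149 and 161 CPM in unbent stems at 1 h, against 67.4, 66.6 and 64.7 CPM before bending, 1.17 ± 0.08 (adjusted p = 1.77e-16), beside 0.45. In both, unbent stems of 1 h lay between bent stems and stems before bending, without overlap. The polygalacturonases Cluster-9242.83891 and Cluster-9242.37265 had 1.24 ± 0.15 and 0.62 ± 0.08, beside 0.62 and 0.43, and the PAE12 cluster had 0.39 ± 0.11, beside 0.39. Among the members that were lower in bent stems, pectate lyases 18 and 1 (Cluster-9242.49347) had -1.02 ± 0.13 and -0.81 ± 0.13 in unbent stems, beside -0.86 and -0.80. PMEI9 had -0.18 ± 0.07, beside -0.43, and pectate lyases 5 and 1 (Cluster-9242.54154) had -0.30 ± 0.10 and -0.12 ± 0.07, beside -0.52 and -0.34. These last 3 did not pass in unbent stems at 1 h.

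Polygalacturonases moved both ways at 1 h and downwards at 3 h in unbent stems, by those that passed. At 1 h 3 of 27 were higher and 6 lower than before bending, and at 3 h none was higher and 8 were lower. The At1g48100 match Cluster-9242.9827 had 3.53, 4.59 and 3.11 CPM in unbent stems at 1 h and 7.15, 5.53 and 5.69 CPM at 3 h, against 24.0, 21.9 and 18.1 CPM before bending. The log2 fold changes were -2.51 ± 0.21 and -1.80 ± 0.20 (adjusted p = 1.02e-10 and 3.59e-08), and no library overlapped. Its companion Cluster-9242.22443 had -1.89 ± 0.28 at 1 h (adjusted p = 9.21e-05). At 3 h 3 of the grapevine-matched clusters, Cluster-9242.43245, Cluster-9242.43247 and Cluster-9242.53821, had log2 fold changes of -2.18 ± 0.33, -1.07 ± 0.14 and -0.77 ± 0.12. Among the esterases, PME40 (Cluster-9242.11762) had 14.5, 9.34 and 14.9 CPM in unbent stems at 3 h, against 5.09, 4.01 and 4.20 CPM before bending, a rise by 1.55 ± 0.19 (adjusted p = 2.7e-08), and the PPE8B match rose by 0.68 ± 0.10. PME34 (Cluster-9242.50017) rose by 0.55 ± 0.07 at 24 h and 0.46 ± 0.07 at 72 h, the PAE12 cluster Cluster-9242.51074 by 0.46 ± 0.08 and 0.50 ± 0.08, and PMEI9 by 0.39 ± 0.07 and 0.40 ± 0.07. Of the 4 members lower at 72 h, PME8 (Cluster-26150.0) and PME54 (Cluster-9242.9761) were near 1 CPM, with -1.54 ± 0.48 and -1.21 ± 0.38, and Cluster-9242.43247 and the At1g80170 match Cluster-9242.74153 had -0.51 ± 0.13 and -0.66 ± 0.20. All 4 calls depended on single libraries. PME8 was lost without any 1 of the 3 libraries before bending or without replicate 2 or 3 of the unbent stems of 72 h (adjusted p 0.0599 to 0.157). PME54 was lost without any 1 of the 3 before bending or replicate 1 or 2 of 72 h (0.0512 to 0.141), Cluster-9242.43247 without replicate 1 before bending or replicate 1 or 2 of 72 h (0.05001 to 0.0797), and Cluster-9242.74153 without replicate 1 or 3 before bending or any 1 of 72 h (0.0531 to 0.124). In limma on log2(FPKM + 0.1) PME8, PME54 and Cluster-9242.74153 had adjusted p of 0.0861, 0.0666 and 0.07565. On log2(FPKM + 1) they had 0.0682, 0.0948 and 0.0537. In limma-voom PME8 and PME54 had 0.0586 and 0.0596.

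Among other pectin genes, from synthesis and trimming to wall-associated receptor kinases, those that passed after bending rose far more often than they fell. The list held 128 further clusters chosen by their Swiss-Prot names, of which 127 were tested, and a few of its matches are fungal or bacterial. At 1 h 15 were higher and 1 lower in bent stems, or 12.6% beside the 1.93% of all clusters, and at 3 h 28 were higher and 2 lower, or 23.6% beside 5.08%. Their median log2 fold change was 0.11 at 1 h and 0.13 at 3 h. The 9 that passed at both times kept their direction. The cluster that fell at 1 h, chosen after its values were seen, was GAE4 (Cluster-9242.57092), an epimerase that makes UDP-galacturonate, with -0.45 ± 0.11 (adjusted p = 0.0124). At 24 and 72 h none passed in edgeR, DESeq2 or limma-voom, and 6 and 12 had an unadjusted p under 0.05 in edgeR.

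Backbone synthesis, the role with the most clusters, had 8 of 33 higher at 1 h and 12 at 3 h and none lower in edgeR, DESeq2 or limma-voom. This role was given by the word galacturonosyltransferase in the name of the match, galacturonosyltransferase-like proteins included. Whether each of its clusters takes part in making the pectin backbone was not tested. GATL3 (Cluster-9242.59077), a galacturonosyltransferase-like protein, had 125, 106 and 104 CPM in bent and 68.6, 61.7 and 55.2 CPM in unbent stems at 3 h. It rose by 0.85 ± 0.09 there and by 0.54 ± 0.09 at 1 h (adjusted p = 3.51e-08 and 0.000147), with no overlap. GATL9 (Cluster-9242.34315), of the same family, had 20, 15.5 and 11.1 CPM in bent and 4.08, 5.11 and 5.59 CPM in unbent stems at 1 h. Its groups were far apart at 1 h, with 1.65 ± 0.24 (adjusted p = 9.11e-06), and overlapped at 3 h, with 0.08 ± 0.26. GATL7 (Cluster-9242.50917) rose by 0.59 ± 0.08 at 1 h and 0.34 ± 0.09 at 3 h. RRT1, which adds rhamnose to the backbone of rhamnogalacturonan, is the match of 5 clusters, of which 2 rose at 1 h and all 5 at 3 h. Cluster-9242.27814 had 61.9, 49.3 and 56.1 CPM in bent and 30.4, 32.8 and 35.4 CPM in unbent stems at 1 h, a rise by 0.76 ± 0.11 without overlap (adjusted p = 7.42e-06). Cluster-9242.27817 rose by 1.24 ± 0.20 at 1 h, and Cluster-9242.65621 by 0.47 ± 0.08 at 3 h. The share that rose at 3 h was 36.4% for backbone synthesis, 44.4% for precursor sugars (4 of 9), 41.7% for rhamnogalacturonan (5 of 12) and 40% for backbone methylation (2 of 5).

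Of 26 genes that trim side chains, 4 rose and none fell at 3 h, while 11 of 26 had a log2 fold change above 0 and the median was -0.07. At 1 h none passed in edgeR, where 2 had an unadjusted p under 0.05, and 1 rose in DESeq2 and in limma-voom. A beta-galactosidase (Cluster-9242.32207), of the enzymes that remove galactose from side chains, had 102, 112 and 122 CPM in bent and 64.1, 57.1 and 45.9 CPM in unbent stems at 3 h. It rose by 1.01 ± 0.10 (adjusted p = 1.4e-08) with no overlap, against 0.17 ± 0.10 at 1 h, and the difference between the times was 0.84 ± 0.14 (adjusted p = 0.000581). Another, matched to rice beta-galactosidase 3 (Cluster-9242.42129), rose by 0.66 ± 0.08 at 3 h. The wall-associated receptor kinases, of a family with some members that bind pectin, held the 2 falls of 3 h. They were WAKL14 (Cluster-9242.64724) with -0.77 ± 0.18 and WAKL4 (Cluster-9242.73904) with -1.44 ± 0.38 (adjusted p = 0.00758 and 0.0137), both of which fall outside the naming rule and were chosen after their values were seen. WAKL4 was of low level, with 0.82, 0.72 and 0.53 CPM in bent and 1.8, 1.25 and 2.5 CPM in unbent stems. Both match proteins named as kinase-like, and whether they bind pectin was not tested.

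**Figure D5:**
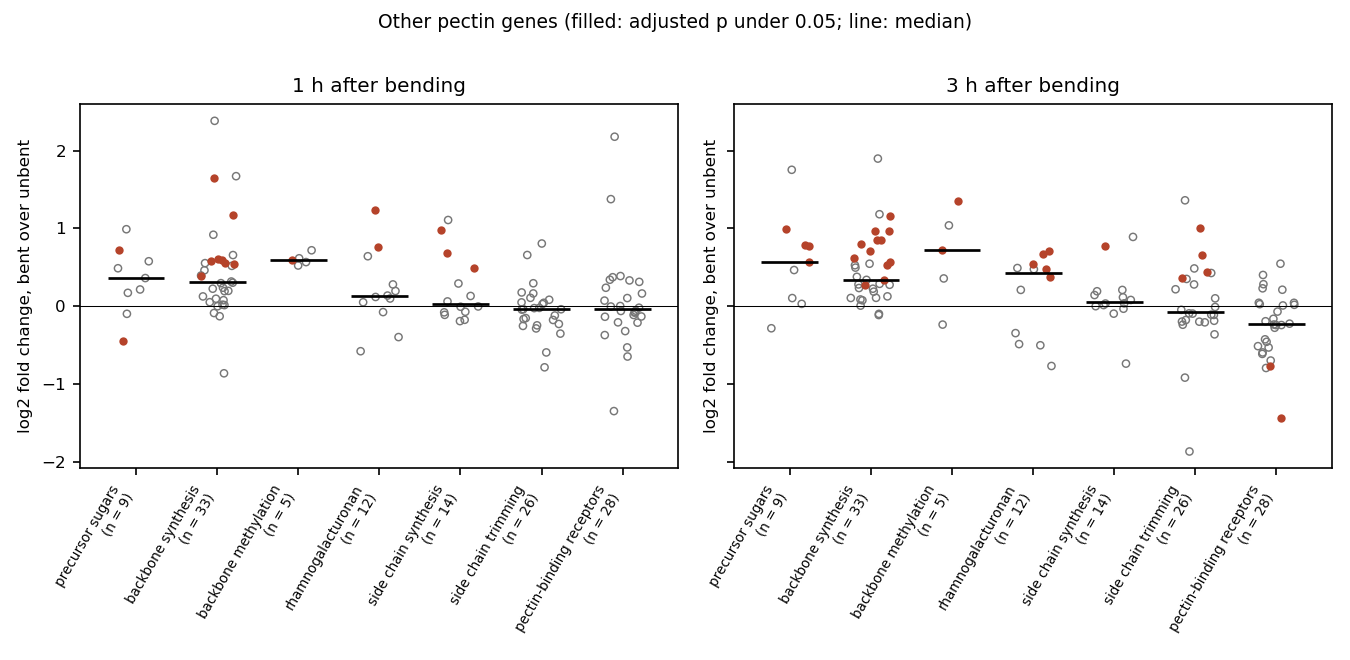
Log2 fold change, bent over unbent, of the other pectin genes at 1 and 3 h by role; each point is 1 cluster, filled where the adjusted p is under 0.05, and lines are medians. Filled points lie above 0 in every role at 3 h except the wall-associated receptor kinases, labelled pectin-binding receptors, where 2 lie below.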

How the data were processed

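The submitters deposited expected counts and FPKM per transcript cluster, which RSEM 1.2.28 estimated, per the submitters' processing notes; the assembler and aligner are not given in the sources used here. Of the deposited expected counts, 8.05% were not whole, and all were rounded. FPKM served for levels between clusters and for 2 alternatives.

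Clusters were kept by edgeR's filterByExpr, scaled by TMM, and tested with edgeR's quasi-likelihood test (robust, 1 model over the 9 groups of 3 libraries), with p-values adjusted by Benjamini-Hochberg over all 52918 clusters. The fit had a common biological coefficient of variation of 0.158 and 30.4 prior degrees of freedom (median). SE is the log2 fold change over the root of F. Passing means an adjusted p under 0.05. No pair of libraries in a group was a duplicate (chi-square per degree of freedom 4.68 to 20.7). Depth was 14.4 M to 23.1 M counts.

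Named members are up to 12 in each direction per bent comparison, the 3 highest in FPKM per class, up to 4 in each direction per unbent comparison, up to 6 whose bending effect differed over time and up to 4 pathway clusters per bent comparison. Others named were chosen after their values were seen. The members and lists were chosen with earlier results of these data known.

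Alternatives were DESeq2's size factors, DESeq2, no filter, a stricter filter (a total of 100, and 1 CPM in 3 libraries), limma-voom, log2(FPKM + 0.1) and log2(FPKM + 1) in limma, the compared groups alone, a replicate block and leaving out each library. Leaving out the 3 libraries richest in ribosomal RNA was chosen after seeing the data. Tools were R 4.3.3, edgeR 4.0.16, limma 3.58.1, DESeq2 1.42.0, Python 3.11.15, pandas 2.3.3, NumPy 2.4.6 and matplotlib 3.10.9.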

Additional observations from a re-analysis of the deposited data

Results flagged for a closer look

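For 8 of the 86 members tested, the effect of bending differed over the 4 times in edgeR's F test, and for 2 of these it also differed between 1 and 3 h. The effects below are log2 fold changes of bent over unbent stems, with 3 libraries a group.

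PME31 (Cluster-9242.52529) had 0.45 at 1 h, 0.45 at 3 h, -0.13 at 24 h and 0.12 at 72 h (adjusted p = 0.000738), and at 1 and 3 h all 3 bent libraries lay above the unbent ones. The At1g48100 match (Cluster-9242.9827) had -0.23, -1.43, 0.42 and -0.06 at these times (adjusted p = 0.00203). At 3 h its bent libraries were all lower, and at 24 h they were all higher. PME6 (Cluster-9242.8988) had -0.37, -1.63, -0.18 and -0.35 (adjusted p = 0.0246), with no overlap at 3 h. The polygalacturonase Cluster-9242.37265 had 0.43, 0.04, 0.16 and -0.07 (adjusted p = 0.0202), with no overlap at 1 h.

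The other 4 are pectate lyases. Pectate lyase 18 (Cluster-9242.53345) had -0.86, -0.80, -0.24 and 0.02 (adjusted p = 0.0195), and pectate lyase 1 (Cluster-9242.49347) had -0.80, -0.70, -0.28 and 0.15 (adjusted p = 0.0138). In both, the 3 bent libraries lay below the unbent ones at 1, 3 and 24 h. Pectate lyase 5 (Cluster-9242.51552) had -0.52 at 1 h and 0.27 at 3 h (adjusted p = 0.00734 over the 4 times). Its effect at 3 h minus that at 1 h was 0.79 ± 0.14 (adjusted p = 0.00299). Pectate lyase 20 (Cluster-9242.34683) had -0.23 at 1 h and 0.40 at 3 h (adjusted p = 0.0152 over the 4 times), and a difference of 0.63 ± 0.14 (adjusted p = 0.0102). For each of these 2, the bent libraries were all lower at 1 h and all higher at 3 h.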

How the results depend on the processing

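Counts of members that passed stayed within 1.5 times the value reported in most alternatives. The exceptions were as follows. The count of 18 at 3 h ranged from 9 to 19 without 1 library. The count of 19 for unbent stems at 72 h was 9 with log2(FPKM + 0.1), 9 with log2(FPKM + 1), 12 without the 3 libraries richest in ribosomal RNA, and 9 to 17 without 1 library. The count of 2 whose effect differed between 1 and 3 h was 4 with no filter, 5 in DESeq2, 1 without the libraries richest in ribosomal RNA and 1 to 3 without 1 library. The count of 8 whose effect differed over the 4 times was 13 in DESeq2 and 6 to 10 without 1 library. The cause was not tested. At 1 h the count of 10 ranged from 8 to 12 in all alternatives, and at 24 and 72 h it was 0 in all. No direction was reversed among the named members that passed in edgeR. Values near 0 that did not pass could change sign without 1 library. An example is pectate lyase 18 at 72 h without replicate 3 of the bent stems. Its libraries then had 178, 194 and 234 FPKM in bent and 199, 214.5 and 183 FPKM in unbent stems, in order of replicate.

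With a replicate block the counts were 11 at 1 h, 18 at 3 h, 0 at 24 h and 0 at 72 h between bent and unbent stems, 24, 24, 17 and 21 for unbent stems at 1, 3, 24 and 72 h, 2 between the effects of 1 and 3 h, 11 over the 4 times and 57 over untreated stems. The numbers did not pair the samples, since the deviations of same-numbered libraries correlated at -0.042 to 0.0718, with 0 of 108 above 0.1.

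Depth of 14.4 M to 23.1 M counts limits members near 1 CPM, such as PME8 and PME54. Gene names are best matches, and 44 members share theirs with another member. With 3 libraries a group, several calls rest on single libraries or on the method, as given beside them.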
